A study of Mus musculus with 31 samples.

Results

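The 10 genes described here encode the subunits of the NMDA and AMPA receptors measured in the basolateral amygdala (BLA) of CYFIP1 OE mice: Grin1, Grin2a, Grin2b, Grin2c, Grin2d, Grin3a, Gria1, Gria2, Gria3 and Gria4. They were chosen by name as subunit genes of both receptor families, 10 of the 48709 genes in the count table, with no threshold on a measured value, and Grin3b, a further NMDA receptor gene, is described with the related genes. CYFIP1 OE mice carry a human CYFIP1 bacterial artificial chromosome (BAC), placed by pronuclear injection and kept on a C57BL/6N background. The authors describe the WT mice as littermates of these mice, without the BAC. The mice came from the lines labelled 1 and 3, bred from the founders with the highest expression of the transgene. QuantSeq, which reads the 3′ end of each polyadenylated transcript, was run on BLA punches of 31 mice, with the left and right punch of a mouse pooled, and each mouse was 1 replicate. The line labelled 1 had 8 WT mice (4 males and 4 females, 59 to 61 days old) and 7 CYFIP1 OE mice (3 males and 4 females, 59 to 77 days old). The line labelled 3 had 8 WT mice (4 males and 4 females, 58 to 60 days old) and 8 CYFIP1 OE mice (4 males and 4 females, 58 to 64 days old). The 4 oldest mice, at 77 days, all belonged to the CYFIP1 OE group of line 1.

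AMPA and NMDA receptors are tetrameric glutamate-gated channels at excitatory synapses. AMPA receptors carry most of the fast current, while NMDA receptors open only when glutamate and a co-agonist are bound and the membrane is depolarized, and they admit calcium. In the BLA, plasticity of both receptor types at inputs to excitatory neurons is a known substrate of fear learning, and the region was sampled because fear conditioning had been tested in this model. The measurements compared here are transcript levels, which say nothing of the amount of receptor at the synapse.

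Total counts per mouse were between 5286708 and 8685308. Levels are given in CPM, counts scaled to a common library total after TMM normalization, and because QuantSeq takes reads from transcript ends they were not divided by transcript length. One mouse, CYFIP1 OE replicate 1 (male, line 3), stood apart from the others by sample connectivity, with a Z-score of -4.74 against -1.18 for the next lowest. The mouse gene Cyfip1 had a log2 fold change of -0.02 (SE 0.08, edgeR, p = 0.765) between CYFIP1 OE and WT mice, and this row takes up transcripts of the human transgene only as far as their reads map to the mouse gene. The punches differed widely in regional markers. Summed over 7 BLA excitatory neuron markers, among them the vesicular glutamate transporter gene Slc17a7 and the transcription factor gene Neurod6 (all 7 measured), levels ran from 9.27 CPM (80 reads, WT replicate 5) to 1423 CPM (CYFIP1 OE replicate 1), with a median of 371.7 CPM. None of the 7 was at 0 in every mouse, and Rspo2 was at 0 in 1 mouse. Summed over the 6 striatal projection neuron markers that passed the filter on low counts, of 7 listed, levels ran from 184 to 4194 CPM. By contrast, 8 of the 10 subunit genes varied between 2.02-fold (Gria2) and 3.20-fold (Grin2c) from the lowest to the highest mouse, while Grin3a varied 5.59-fold and Grin2d 24.3-fold. In bulk tissue, fewer cells of a type and less RNA per cell cannot be told apart.

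Grin1 encodes GluN1, the subunit that every NMDA receptor contains and that binds the co-agonist. Its gene (ENSMUSG00000026959) lies on chromosome 2 of GRCm38, from 25291181 to 25319187, on the minus strand. Over the 31 mice its level was 133 ± 22.5 CPM (SD), with a lowest value of 80.6, a median of 133.6 and a highest of 182.2 CPM. The GluN2 subunits bind glutamate and set the channel's kinetics. Grin2b (chromosome 6, 135713233 to 136173511), the GluN2 gene that predominates in the young forebrain, had the highest level of the NMDA receptor genes, 307 ± 46.3 CPM, and ranged from 199.8 to 411.5 CPM. Grin2a (chromosome 16, 9567898 to 9995560), whose expression increases as the forebrain matures, had 102 ± 22.1 CPM and ranged from 63.2 to 160.8 CPM. Grin2a was below Grin2b in each of the 31 mice, at 0.330 of its level on average (geometric mean, range 0.264 to 0.525). Grin2c (chromosome 11, 115249169 to 115267243), best known from the cerebellum and glia, had 45.5 ± 10.1 CPM. Grin2d (chromosome 7, 45831883 to 45878378), known from interneurons and the brainstem, had 3.47 ± 2.19 CPM. Between 4 and 60 reads per mouse lie behind the Grin2d values. Grin3a (chromosome 4, 49661611 to 49845744) encodes GluN3A, a glycine-binding subunit that lowers calcium permeability, and had 26.0 ± 10.5 CPM with a range of 9.03 to 50.5 CPM. Its coefficient of variation over mice, 40.4%, was the highest of the 10 genes after that of Grin2d (63.1%), and that of Gria2 was the lowest (14.5%).

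Gria2 encodes GluA2, whose edited form makes AMPA receptors nearly impermeable to calcium. Its gene (chromosome 3, 80681450 to 80802835) had the highest level of all 10 genes, 405 ± 58.9 CPM over 31 mice (SD), with a lowest value of 264.5, a median of 401.2 and a highest of 533.0 CPM. Gria1 (chromosome 11, 57011387 to 57330244), which encodes GluA1, the subunit trafficked to synapses during potentiation, followed with 342 ± 65.6 CPM and a range of 251.2 to 573.0 CPM. Gria3 (chromosome X, 41400854 to 41678601) had 173 ± 26.8 CPM. Gria4 (chromosome 9, 4417896 to 4796234), known from interneurons and the thalamus, had 25.1 ± 4.93 CPM. Ordered by mean CPM, the genes ran Gria2, Gria1, Grin2b, Gria3, Grin1, Grin2a, Grin2c, Grin3a, Gria4 and Grin2d. Of the 9 pairs of neighbours in that order, 8 had a mean paired log2 difference that passed a test against 0 (two-sided sign-flip permutation test, adjusted p from 2.25e-05 to 0.00708). In 2 of these 8 the mean difference was smaller than its SD over mice, at 0.15 (SD 0.29) for Gria1 over Grin2b and 0.40 (SD 0.42) for Grin1 over Grin2a. The smallest adjusted p rests on 1e-05, the smallest p that the permutations can give. Grin3a and Gria4 did not pass this test (mean log2 difference -0.05, SD 0.63, permutation adjusted p = 0.69), with Grin3a higher in 16 of 31 mice. Gria1 was above Grin2b in 22 of 31 mice, and in the 16 WT mice alone that pair did not pass the test (permutation adjusted p = 0.0821). The plot of subunit levels in each mouse shows these steps together with the overlap of the 4 groups at every gene.

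**Figure D1:**
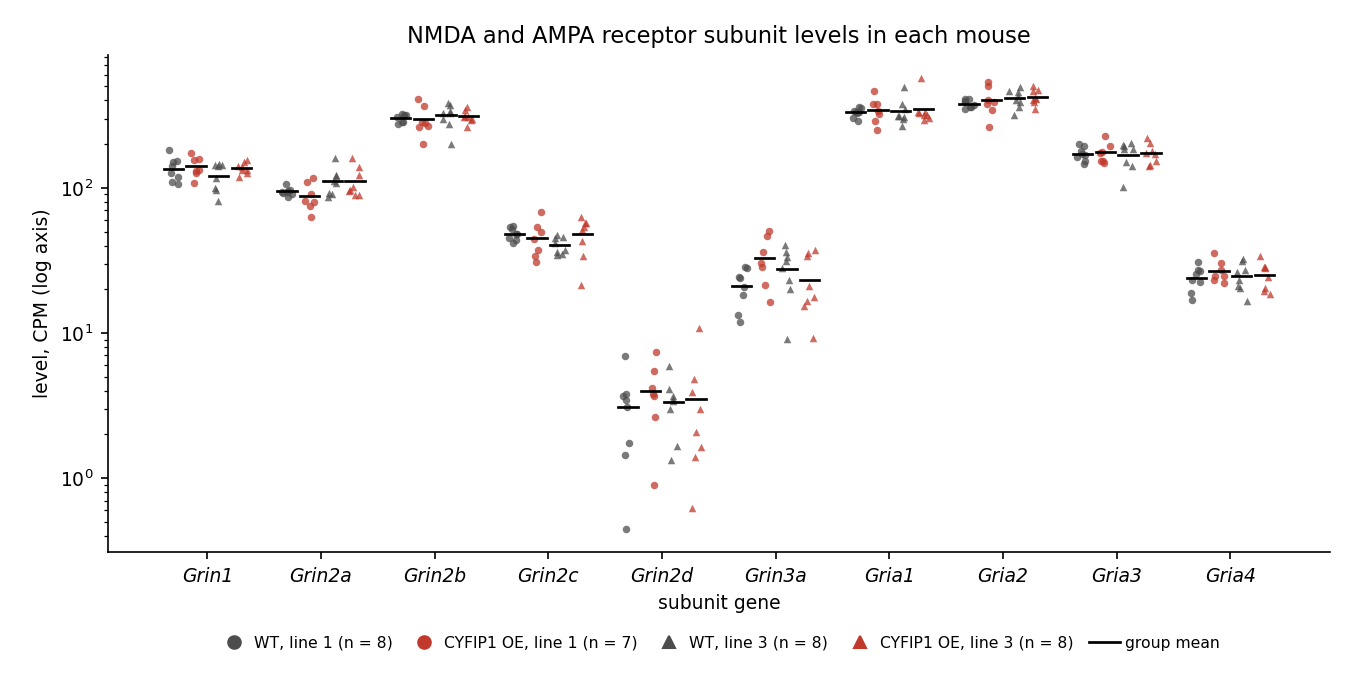
Level of each NMDA and AMPA receptor subunit gene in every mouse, in CPM on a log axis, by genotype (grey, WT; red, CYFIP1 OE) and line (circles, line 1; triangles, line 3), with the mean of each group as a black bar. Gria2, Gria1 and Grin2b lie highest (means of 405, 342 and 307 CPM over 31 mice), Grin2d lies lowest (3.47 CPM), and WT and CYFIP1 OE points overlap at each gene in both lines.

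As a share of the summed NMDA receptor transcripts of a mouse (617 ± 70.1 CPM, n = 31), Grin2b made up 49.6% ± 3.2, Grin1 21.7% ± 3.49, Grin2a 16.5% ± 2.74, Grin2c 7.45% ± 1.81, Grin3a 4.22% ± 1.67 and Grin2d 0.571% ± 0.364 (SD). Grin2b thus had more reads than the obligatory subunit gene Grin1, by 2.30-fold on average (range 1.15 to 3.41), a comparison that assumes that QuantSeq captures both 3′ ends alike. Among the summed AMPA receptor transcripts (944 ± 117 CPM), Gria2 made up 42.9% ± 2.77, Gria1 36.1% ± 3.89, Gria3 18.4% ± 2.5 and Gria4 2.70% ± 0.637. The ratio of the AMPA to the NMDA receptor sum was 1.54 ± 0.152 and lay between 1.31 and 1.87 in the 31 mice. Its mean was 1.52 ± 0.115 for the 16 WT and 1.55 ± 0.187 for the 15 transgenic mice (SD).

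No subunit gene passed the test between CYFIP1 OE and WT mice when both lines were analyzed together. A gene was counted as called at an unadjusted p under 0.05 in edgeR's quasi-likelihood F test (two-sided, with sex and line as covariates), and 0 of the 10 genes were called, against 4.3% of the 17428 genes tested. After adjustment in edgeR, 0 of all tested genes passed 0.05 (750 had an unadjusted p under 0.05), and the adjusted p was 0.999 for each subunit gene. DESeq2 also called 0 of the 10 genes at an unadjusted p under 0.05 and 0 of all tested genes after adjustment (814 unadjusted). Of the 10 log2 fold changes 8 were above 0, against 48.7% of all tested genes, and their median was 0.07 against -0.01 over all genes. WT and CYFIP1 OE mice overlapped at each of the 10 genes. The share of all tested genes with such an overlap was not counted, so this is a description of the levels. Grin1 had the smallest p of the 10. It had a lowest, median and highest level of 80.6, 133.5 and 182.2 CPM in WT mice and of 107.9, 133.6 and 173.6 CPM in CYFIP1 OE mice. The medians were nearly equal, and the groups differed in their lowest values. Its log2 fold change was 0.12 (SE 0.09, 95% confidence interval -0.07 to 0.31, edgeR, p = 0.215), and 11 of 15 CYFIP1 OE mice exceeded the mean of the WT mice. Grin2a had 85.95, 94.8 and 160.8 CPM in WT mice against 63.2, 95.1 and 160.4 CPM in CYFIP1 OE mice, and Grin2b 201.9, 315.6 and 383.3 CPM against 199.8, 300.0 and 411.5 CPM. Their log2 fold changes were -0.05 (interval -0.25 to 0.16) for Grin2a and -0.02 (interval -0.20 to 0.16) for Grin2b. Among the AMPA receptor genes, Gria1 had 266.5, 329.8 and 498.9 CPM in WT mice against 251.2, 326.3 and 573.0 CPM in CYFIP1 OE mice, and Gria2 had 315.8, 393.0 and 492.2 CPM against 264.5, 401.8 and 533.0 CPM. Their log2 fold changes were 0.05 each, with intervals of -0.15 to 0.25 for Gria1 and -0.11 to 0.22 for Gria2. The remaining log2 fold changes were 0.08 (interval -0.16 to 0.33) for Grin2c, 0.24 (interval -0.39 to 0.88) for Grin2d, 0.18 (interval -0.25 to 0.61) for Grin3a, 0.03 (interval -0.15 to 0.22) for Gria3 and 0.09 (interval -0.12 to 0.30) for Gria4. The sign of the log2 fold change turned in at least 1 alternative setting for Grin2a, Grin2b, Grin2c and the 4 AMPA receptor genes, and it stayed positive for Grin1, Grin2d and Grin3a. The intervals are narrowest for the abundant genes and widest for Grin2d and Grin3a, as the plot of genotype differences shows.

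**Figure D2:**
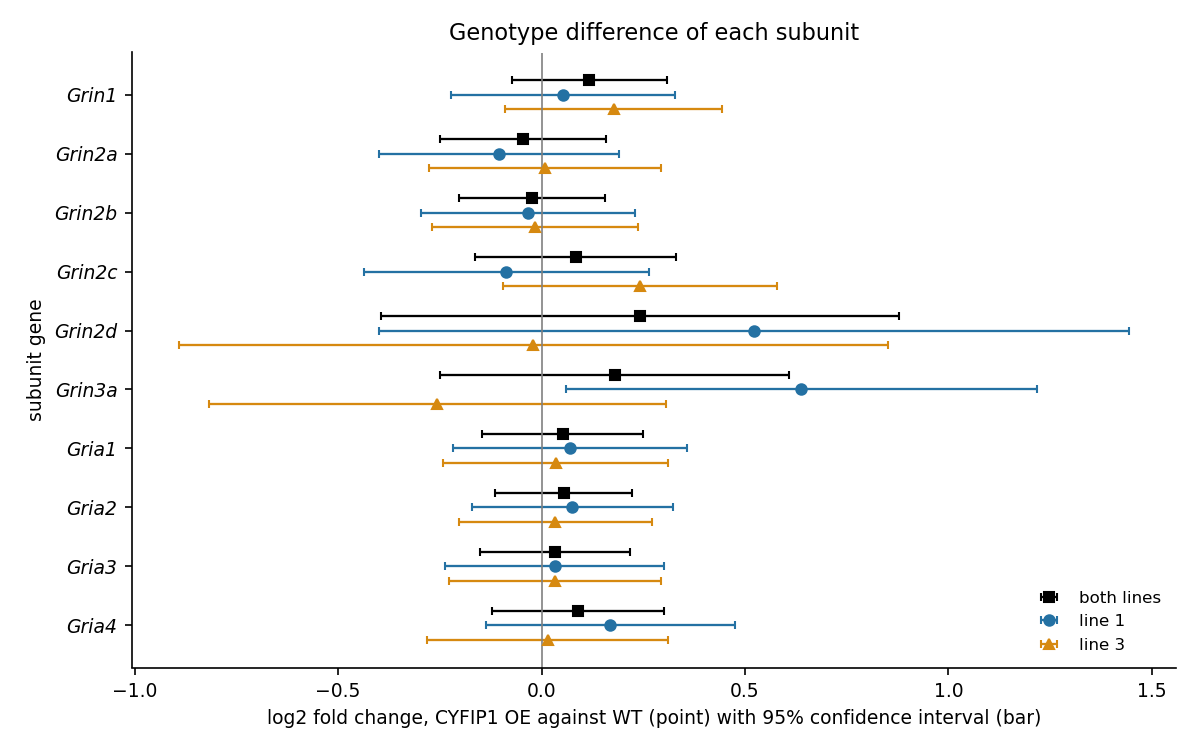
Log2 fold change of each subunit gene between CYFIP1 OE and WT mice (points) with its 95% confidence interval (bars), from the edgeR fit over both lines (black squares), in line 1 (blue circles) and in line 3 (orange triangles). The interval includes 0 for each gene in each fit except Grin3a in line 1, whose log2 fold change of 0.64 has an interval of 0.06 to 1.22.

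The lines were then fitted with a genotype term each. In line 1, 1 of the 10 genes was called (3.96% of all tested genes), and in line 3, 0 were (7.93%). After adjustment over all tested genes, 0 of the 10 passed 0.05 in either line. The gene called in line 1 was Grin3a. WT mice of line 1 had Grin3a levels of 11.97, 13.2, 18.3, 20.8, 23.8, 24.2, 27.9 and 28.4 CPM, and CYFIP1 OE mice had 16.3, 21.3, 28.6, 30.1, 35.9, 46.5 and 50.5 CPM. Of the 7 CYFIP1 OE mice 5 were above every WT mouse, and 2 lay within the WT range. The mean ± SD was 21.1 ± 6.21 CPM for the 8 WT and 32.75 ± 12.5 CPM for the 7 transgenic mice. The log2 fold change was 0.64 (SE 0.28, edgeR, p = 0.0300, adjusted p = 1.00). In line 3 the order of the means was the opposite, at 27.7 ± 10.1 CPM for the 8 WT and 23.35 ± 10.6 CPM for the 8 transgenic mice (SD), and the genotypes overlapped over most of their range. There the log2 fold change was -0.26 (SE 0.27, edgeR, p = 0.356). The difference between the lines was itself tested by the interaction of line and genotype, which called 1 of the 10 genes (8.1% of all tested genes). It was Grin3a again, with a log2 difference of -0.90 (SE 0.39, edgeR, p = 0.0293, adjusted p = 0.571).

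Age and the regional content of the punches also differed between the genotypes of line 1. Without the 4 CYFIP1 OE mice aged 77 days, which had 21.3, 28.6, 35.9 and 50.5 CPM, the log2 fold change in line 1 was 0.49 (edgeR, p = 0.196) and the interaction -0.75 (p = 0.114). Leaving out any 1 of WT replicates 5 and 9 and CYFIP1 OE replicates 2, 6 and 7 took p in line 1 to between 0.0501 and 0.102, and leaving out any 1 of WT replicate 2 and CYFIP1 OE replicates 2, 7 and 10 took p of the interaction to between 0.0505 and 0.0678. Only 1 WT and 1 CYFIP1 OE mouse of line 1 came from a name group that holds both genotypes, where mice whose names share a prefix form a name group, so that name group and genotype in line 1 cannot be told apart for the others. Those 2 mice had 18.3 CPM (WT, female) and 46.5 CPM (CYFIP1 OE, male). The summed BLA excitatory neuron markers had a median of 227.7 CPM in WT (9.27 to 571.4) and 379.2 CPM in CYFIP1 OE mice of line 1 (40.8 to 701.2), and of 470.2 CPM in WT (252.2 to 812.9) and 291.1 CPM in CYFIP1 OE mice of line 3 (42.4 to 1423), so they were ordered as Grin3a was in both lines. The summed striatal markers were ordered the other way, with medians of 2329 and 1659 CPM in WT and CYFIP1 OE mice of line 1 and of 1462 and 2396 CPM in those of line 3. Over the 31 mice log2 Grin3a went with the log2 BLA excitatory neuron sum at Pearson r = 0.670 and with the striatal sum at r = -0.663, from the same libraries. The part of age, name group and punch content in the Grin3a result was not tested.

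**Figure D3:**
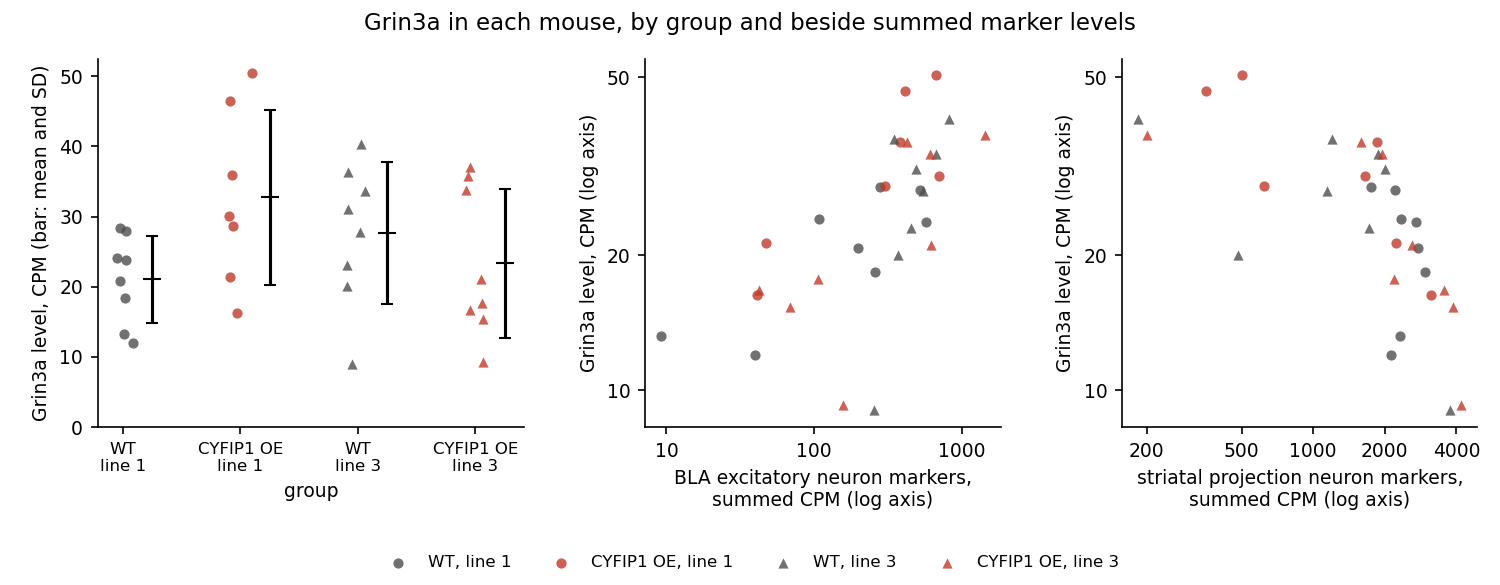
Grin3a level in CPM by group (left, with the mean and SD of each group as bars), and on log axes against the summed CPM of the BLA excitatory neuron markers (middle) and of the striatal projection neuron markers (right) in the same mouse. Of the 7 CYFIP1 OE mice of line 1, 5 lie above the highest WT mouse of that line (28.4 CPM), and over all 31 mice Grin3a is higher where the first sum is high (r = 0.670) and the second is low (r = -0.663).

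The other 9 genes had log2 fold changes between -0.10 (Grin2a) and 0.52 (Grin2d) in line 1 and between -0.02 (Grin2d) and 0.24 (Grin2c) in line 3. In line 3, Grin1 had 80.6, 129.4 and 146.5 CPM (lowest, median and highest) in WT and 118.2, 136.0 and 154.9 CPM in CYFIP1 OE mice, and 7 of the latter 8 exceeded the mean of the WT mice. Its log2 fold change was 0.18 (SE 0.13, edgeR, p = 0.181). Grin2c of line 3 had 34.7, 39.8 and 47.1 CPM in WT and 21.3, 52.3 and 63.4 CPM in CYFIP1 OE mice. It was spread in both directions, with 5 CYFIP1 OE mice above and 2 below every WT mouse, and its log2 fold change was 0.24 (SE 0.16, edgeR, p = 0.15). The lowest of these values came from CYFIP1 OE replicate 1, and without that mouse the log2 fold change of Grin2c in line 3 was 0.36 (edgeR, p = 0.0153) and its interaction with line 0.44 (p = 0.0346). Of all tested genes 9.03% and 10.4% were called there, and 0 passed adjustment. Grin2c went with the striatal sum at r = 0.647 without that mouse. With all mice of line 3 that sum had medians of 1462 CPM in WT and 2396 CPM in CYFIP1 OE mice. The part of punch content in Grin2c was not tested.

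Subunit balance within a mouse was compared as a log2 ratio, which does not depend on library scaling. Of the 12 comparisons (4 ratios, in both lines and in each line), 0 passed an adjusted p of 0.05 in a two-sided permutation test, and 0 had an unadjusted p under 0.05. The log2 ratio of Grin2a to Grin2b, which marks the developmental exchange of these subunits, was -1.59 ± 0.225 for the 16 WT and -1.61 ± 0.236 for the 15 transgenic mice (SD), a difference of -0.03 within line (permutation p = 0.695). The log2 ratio of Grin2b to Grin1 was 1.28 ± 0.255 for WT and 1.12 ± 0.337 for transgenic mice, a difference of -0.16 (permutation p = 0.127, adjusted p = 0.761), and 3 of 15 transgenic mice exceeded the mean of the WT mice. In line 3 that difference was -0.20 (exact permutation p = 0.0811, adjusted p = 0.761). For Gria1 to Gria2 the log2 ratio was -0.25 ± 0.228 for WT and -0.26 ± 0.246 for transgenic mice (permutation p = 0.954), and for Gria3 to Gria2 it was -1.23 ± 0.224 and -1.24 ± 0.247 (permutation p = 0.956).

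Between the lines, with both genotypes pooled, 1 of the 10 genes was called (3.31% of all tested genes), and 0 passed adjustment. It was Grin2a, with 63.2, 92.5 and 117.7 CPM (lowest, median and highest) in the 15 mice of line 1 and 85.95, 104.7 and 160.8 CPM in the 16 mice of line 3. The ranges overlapped, and 6 mice of line 3 lay above every mouse of line 1. The log2 difference, line 3 minus line 1, was 0.29 (SE 0.10, edgeR, p = 0.00658, adjusted p = 1.00), and it lay between 0.23 and 0.33 when each mouse was left out in turn, with p at most 0.0173. After adding 5 surrogate variables the difference was 0.14 (edgeR, p = 0.08), and in WT mice alone 0.23 (p = 0.0605). In WT mice alone Grin2c was called instead, with a log2 difference of -0.26 (edgeR, p = 0.0177). In that fit 6.13% of all tested genes were called and 0 passed adjustment. With both genotypes pooled the log2 difference of Grin2c was -0.10 (edgeR, p = 0.4005). The summed central amygdala markers (5 of 5 measured, none at 0 in every mouse) had a median of 58.0 CPM in line 1 (26.9 to 142.5) and 36.5 CPM in line 3 (20.2 to 111.2), the BLA excitatory neuron markers of 277.0 and 439.1 CPM, and Grin2a went with them at r = -0.723 and 0.494. Their part in the difference was not tested. The log2 ratio of Grin2a to Grin2b was -1.71 ± 0.0932 in line 1 and -1.50 ± 0.271 in line 3 (SD).

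Between the sexes 2 of the 10 genes were called, both higher in males (4.62% of all tested genes were called, and 3.02% called and higher in males), and 0 passed adjustment, against 0.0631% of all tested genes. Grin2d had 0.622, 3.66 and 10.8 CPM (lowest, median and highest) in the 15 males and 0.443, 1.93 and 5.97 CPM in the 16 females, with 13 of 15 males above the female mean. Its log2 difference, male minus female, was 0.67 (SE 0.31, edgeR, p = 0.0384, adjusted p = 0.97), and without CYFIP1 OE replicate 1, the highest male, it was 0.49 (p = 0.116). Gria4 had 16.8, 27.2 and 35.7 CPM in males and 16.7, 23.1 and 31.4 CPM in females, with a log2 difference of 0.21 (SE 0.10, edgeR, p = 0.0491, adjusted p = 0.97). Either call was lost with 1 mouse left out, for Grin2d without any of 12 of the 31 mice and for Gria4 without any of 21. The X-linked gene Gria3 had a median of 177.3 CPM in males and 171.5 CPM in females and a log2 difference of 0.00 (interval -0.19 to 0.18, edgeR, p = 0.988).

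Across mice the subunit genes did not vary as 1 block. Of the 45 pairs, 12 had a Pearson correlation of log2 CPM with an adjusted p under 0.05 (permutation, 31 mice), 10 positive and 2 negative. The share of all gene pairs that would pass this cut was not computed. The median r over the 45 pairs was 0.096, against 0.006 over all pairs of the 8449 tested genes with a mean of at least 10 CPM, and 11.1% of the member pairs had an r above 0.5, against 4.28% of those pairs. That set of genes leaves out Grin2d. Over all pairs of the 17428 tested genes the median r was -0.001, and 1.72% had an r above 0.5. The 3 highest correlations joined Gria2 and both major GluN2 genes. Grin2a and Gria2 had r = 0.808 (Spearman rho = 0.791, permutation adjusted p = 0.000225), with 0.807 in line 1, 0.848 in line 3 and 0.786 without the 2 mice farthest from the Grin2a median. Grin2b and Gria2 had r = 0.754 (rho = 0.677, permutation adjusted p = 0.000225), with 0.864 and 0.614 in lines 1 and 3 and 0.599 without the 2 farthest mice. Grin2a and Grin2b had r = 0.646 (rho = 0.726, permutation adjusted p = 0.0015), with 0.919 in line 1 and 0.482 in line 3. In contrast the obligatory NMDA receptor gene Grin1 did not pass the test with either over the 31 mice, at r = -0.166 with Grin2a (permutation adjusted p = 0.580) and 0.216 with Grin2b (adjusted p = 0.515). The lines differed for Grin1 and Grin2b, with r = -0.085 in line 1 and 0.565 in line 3. The value of line 3 was 0.251 without the name group of CYFIP1 OE replicate 1. For Grin1 and Grin2a, r was -0.258 in line 1 and 0.028 in line 3. Grin1 passed with Grin2c (r = 0.483, rho = 0.546, permutation adjusted p = 0.036) and with Gria3 (r = 0.474, adjusted p = 0.036), although the rho of the latter pair, 0.370, did not (adjusted p = 0.190). Without the 4 mice of the name group of CYFIP1 OE replicate 1 (3 WT and 1 CYFIP1 OE mouse of line 3), r of Grin1 and Gria3 was 0.160 (permutation adjusted p = 0.734). Grin2b and Gria3 had r = 0.605 (rho = 0.485, permutation adjusted p = 0.00486), and Grin3a and Gria1 had r = 0.541 (rho = 0.502, permutation adjusted p = 0.0121).

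Among the 6 pairs of AMPA receptor genes 2 passed. Gria1 and Gria2 had r = 0.487 (permutation adjusted p = 0.036) but a rho of 0.210 (adjusted p = 0.630), and r was 0.323 without the 2 mice farthest from the Gria1 median. Gria2 and Gria3 had r = 0.470 (rho = 0.424, permutation adjusted p = 0.036 for r and 0.102 for rho). The 3 lowest correlations all involved Grin2c. With Gria1 it had r = -0.655 (rho = -0.418, permutation adjusted p = 0.00157 for r and 0.102 for rho), with -0.818 in line 1 and -0.398 without the 2 farthest mice. In line 3 its r was -0.579, but -0.176 without CYFIP1 OE replicate 1 and 0.108 without the name group of that mouse. With Grin3a it had r = -0.460 (rho = -0.483, permutation adjusted p = 0.036), and with Grin2a r = -0.387 (adjusted p = 0.114). The relation of Grin2a and Gria1 rests on 2 mice: the pair had r = 0.456 (permutation adjusted p = 0.0403) but a rho of -0.013, and r was -0.001 without the 2 mice farthest from the Grin2a median. Without CYFIP1 OE replicate 1, 9 pairs had an adjusted p under 0.05, and those lost were Grin2a with Gria1 (permutation adjusted p = 0.385), Gria1 with Gria2 (0.102) and Grin2c with Grin3a (0.0704).

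**Figure D4:**
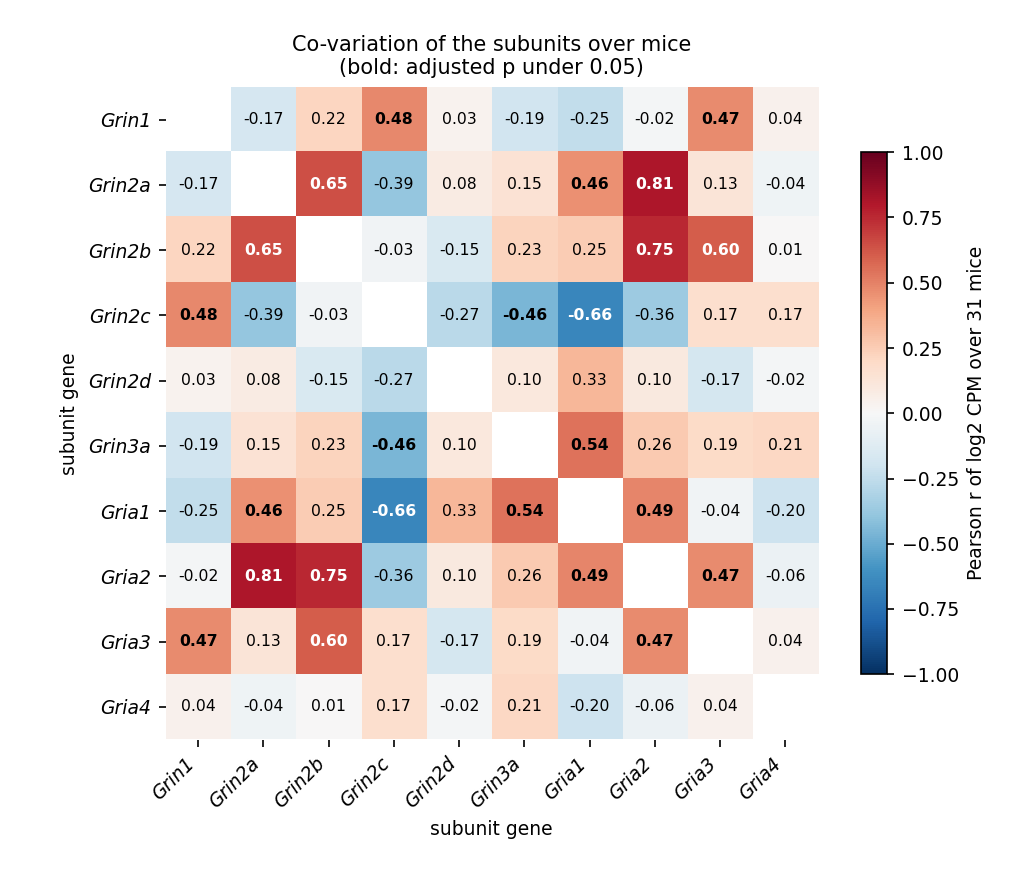
Pearson r of log2 CPM over 31 mice for each of the 45 pairs of subunit genes (red, positive; blue, negative), with bold print where the permutation p adjusted over the 45 pairs is under 0.05. Gria2 with Grin2a (0.81) and Grin2b (0.75) gives the darkest red cells, and Grin2c with Gria1 (-0.66) the darkest blue.

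**Figure D5:**
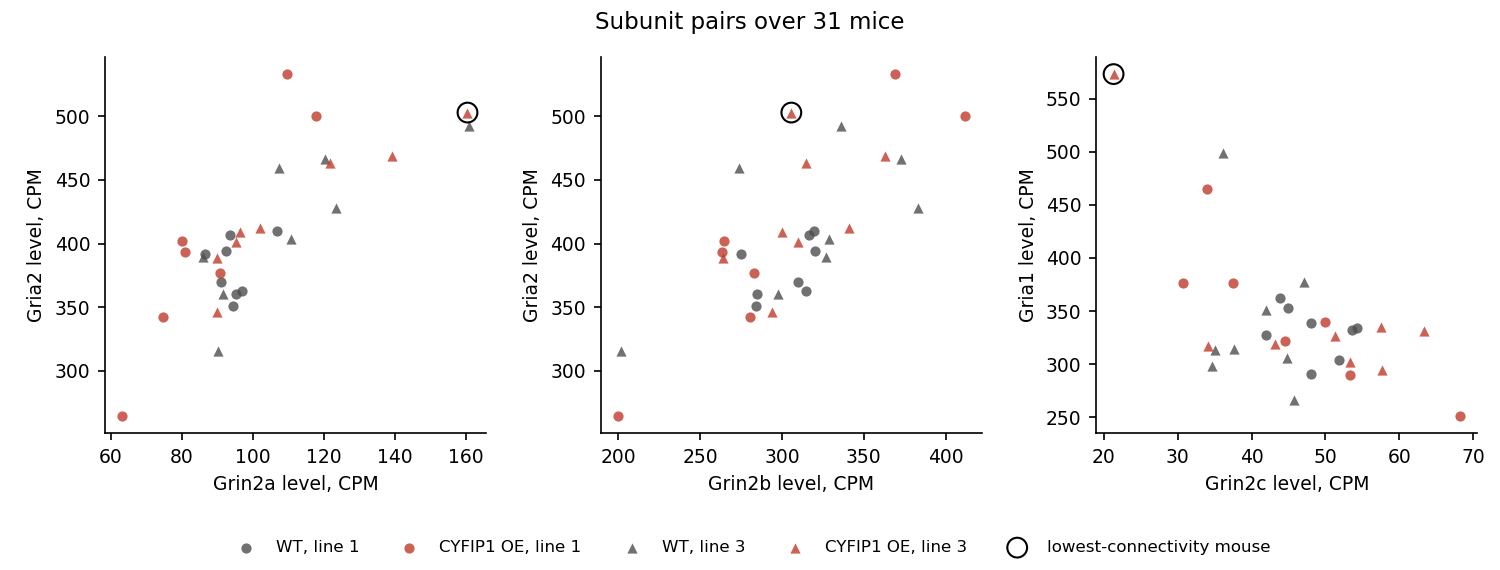
Level in each of 31 mice of Gria2 against Grin2a (left), Gria2 against Grin2b (middle) and Gria1 against Grin2c (right), in CPM, by genotype and line, with CYFIP1 OE replicate 1, the mouse of lowest connectivity, ringed. Gria2 is higher where Grin2a and Grin2b are higher, over WT and CYFIP1 OE mice of both lines (r = 0.808 and 0.754), while Gria1 is highest, at 573.0 CPM, in the ringed mouse, where Grin2c is lowest, at 21.3 CPM.

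Promoter sequence was compared for Grin1 and Grin2c, the pair of co-varying NMDA receptor genes for which the RefSeq promoter table of GRCm38.p6 holds both, and for Gria2, the gene of the highest correlations. That table matched 5 of the 10 genes (also Grin2d and Gria4), and Grin2a, Grin2b, Grin3a, Gria1 and Gria3 have no entry. Each sequence runs 5′ to 3′ from 250 bases before to 50 bases after the annotated start, and capitals mark the letters GGGCGG (a GC box) and CACGTG (an E-box) on the strand shown.
Grin1, chr2:25319138-25319437, minus strand: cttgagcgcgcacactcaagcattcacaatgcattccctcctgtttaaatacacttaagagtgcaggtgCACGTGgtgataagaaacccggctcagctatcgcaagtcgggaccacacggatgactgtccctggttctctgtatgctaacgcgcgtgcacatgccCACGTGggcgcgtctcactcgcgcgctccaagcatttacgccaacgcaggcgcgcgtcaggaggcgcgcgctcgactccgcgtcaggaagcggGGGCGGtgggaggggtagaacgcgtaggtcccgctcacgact
Grin2c, chr11:115267194-115267493, minus strand: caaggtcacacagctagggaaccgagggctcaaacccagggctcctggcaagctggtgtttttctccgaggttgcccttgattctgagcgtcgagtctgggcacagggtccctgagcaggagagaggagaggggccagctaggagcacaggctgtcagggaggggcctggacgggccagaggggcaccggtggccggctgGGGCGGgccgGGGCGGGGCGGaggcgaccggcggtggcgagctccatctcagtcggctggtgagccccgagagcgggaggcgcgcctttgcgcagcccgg
Gria2, chr3:80802786-80803085, minus strand: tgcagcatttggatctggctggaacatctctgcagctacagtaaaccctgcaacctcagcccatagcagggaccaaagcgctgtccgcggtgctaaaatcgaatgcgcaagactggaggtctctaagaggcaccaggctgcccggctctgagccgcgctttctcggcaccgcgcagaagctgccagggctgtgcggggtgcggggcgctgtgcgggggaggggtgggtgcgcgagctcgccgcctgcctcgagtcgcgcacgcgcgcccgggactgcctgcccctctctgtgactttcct
Both strands were searched. The Grin1 sequence holds 1 GC box and 2 E-boxes, the Grin2c sequence 3 GC boxes, of which a pair overlaps, and no E-box, and the Gria2 sequence neither. The cyclic AMP response element TGACGTCA is in none of the 5 sequences. Of the 32851 promoters of this length in the table, 35.7% hold GGGCGG, 7.15% hold CACGTG and 1.79% hold TGACGTCA. All 3 printed sequences were rich in G and C, at 60.7% (Grin1), 70.0% (Grin2c) and 65.7% (Gria2) against a median of 52.7% over all promoters, with 33, 22 and 26 CpG dinucleotides against a median of 7. A match of letters is a description of the sequence, not a binding site.

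For each subunit gene, the 3 genes outside the family whose residual log2 CPM (after sex, line and genotype) were most correlated with it over the 31 mice were taken from 8440 genes with a mean of at least 10 CPM, as a description. For Grin1 these were Rbfox3, which encodes the neuronal nuclear protein NeuN (r = 0.862), Zfp428 (0.837) and Cplx2 (0.826), which encodes a complexin of the presynaptic release machinery. For Grin2a the first was Camk2a (0.790), the calcium/calmodulin-dependent kinase abundant in excitatory neurons, followed by Nfib (0.767) and Zfp260 (0.742). For Grin2b they were Celf2 (0.801), Adcy1 (0.793), a calcium-stimulated adenylyl cyclase, and D430041D05Rik (0.785). For Grin2c they were Rad9b (0.852), Tmod1 (0.815) and Abhd11os (0.814), and for Grin2d Zfand1 (0.75), Fkbp1b (0.648) and Clpp (0.647). Grin3a had the highest values of the 10 genes, with Sobp (0.887), Spon1 (0.881) and Mylk (0.871). For Gria1 they were Lgi1 (0.836), a secreted protein that links to AMPA receptors, Arhgef25 (0.815) and St6galnac5 (0.797). For Gria2 they were Mal2 (0.766), Pcdh1 (0.762) and Cacna2d1 (0.757), a calcium channel subunit. For Gria3 they were Map9 (0.840), Pcsk2 (0.788) and Nlk (0.780), and for Gria4 0610030E20Rik (0.652), Vps35 (0.587) and Pcdh9 (0.582). Without CYFIP1 OE replicate 1 the first gene stayed first for 8 of the 10, while Rad9b was 8th for Grin2c and Mal2 3rd for Gria2.

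The same spread over punches ran through the subunit genes in different directions, given here as correlations of log2 CPM with log2 summed markers over 31 mice, from the same libraries. With the striatal projection neuron sum, Grin2c (r = 0.734) and Grin1 (0.509) were positive and Gria1 (-0.738) and Grin3a (-0.663) negative. With the 6 GABA neuron markers (Gad1, Gad2, Slc32a1, Pvalb, Sst and Vip, sum of 248.5 to 785.1 CPM), Grin2a (-0.783), Gria2 (-0.643) and Gria1 (-0.609) were negative and Grin2c (0.595) positive, but Gria1 had a rho of -0.094, and without CYFIP1 OE replicate 1, whose GABA neuron sum was the lowest, r was -0.390 for Gria1 and 0.377 for Grin2c. With the 7 oligodendrocyte markers (sum of 1101 to 8813 CPM), the lowest were Gria2 (-0.680), Grin2b (-0.659), Grin3a (-0.582), Gria1 (-0.572), Grin2a (-0.540) and Gria3 (-0.532). The other genes lay between -0.280 (Grin1) and 0.284 (Grin2c). With the 3 choroid plexus markers (sum of 16.4 to 8314 CPM), Grin1 (-0.622), Grin2c (-0.545) and Gria3 (-0.535) were lowest. Grin1 had a lower value, -0.703, with the 3 oligodendrocyte precursor markers (sum of 19.8 to 73.7 CPM), where Gria3 followed at -0.553. With the 6 astrocyte markers, whose sum varied least (1581 to 2185 CPM), values lay between -0.233 (Grin2d) and 0.498 (Gria2). Gria4 had r between -0.106 and 0.106 with the BLA excitatory neuron, GABA neuron, striatal, oligodendrocyte and choroid plexus sums. The part of punch content in the correlations between subunit genes was not tested.

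A list of 35 related genes was read beside the subunits: kainate and delta receptor subunits and Grin3b, auxiliary subunits of AMPA and kainate receptors, and genes of receptor assembly, trafficking, editing and co-agonist supply. Of these 34 were tested, and Grin3b, with at most 4 reads in a mouse, was not. With both lines together 0 of 34 were called in edgeR (4.3% of all tested genes), and their median log2 fold change was 0.04 against -0.01 over all genes. In line 1, 2 were called, both higher in CYFIP1 OE mice (2.15% of all tested genes): the kainate receptor subunit gene Grik1 (log2 fold change 0.76, SE 0.36, edgeR, p = 0.0420) and Nsf (0.32, SE 0.16, p = 0.0448), whose product binds GluA2 and acts in membrane fusion. In line 3, 3 were called, 2 higher (4.26% of all tested genes) and 1 lower (3.67%). Gripap1, which encodes a recycling endosome protein that binds the AMPA receptor scaffold GRIP, had a log2 fold change of 0.54 (SE 0.16, edgeR, p = 0.00199, adjusted p = 0.514), Grik2 0.48 (SE 0.19, p = 0.0187) and Grik4 -0.53 (SE 0.26, p = 0.0494). By the interaction of line and genotype 5 of 34 were called (8.1%): Gripap1 (log2 difference 0.71, edgeR, p = 0.00443), Nsf (-0.55, p = 0.0151), Grik1 (-1.23, p = 0.0203), Grik2 (0.61, p = 0.0360) and Shisa6 (-1.72, p = 0.0362), which encodes an AMPA receptor auxiliary subunit. None of the 34 passed adjustment in these 4 comparisons, with a smallest adjusted p of 0.514. The calls in line 1 and by the interaction use the same line 1 mice as Grin3a, in which age and name group differed between the genotypes. Their part in the calls of related genes was not tested.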

How the data were processed

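QuantSeq 3′ Fwd libraries were made from BLA punches of 31 mice, 15 with the transgene. Per the labels and methods, the authors mapped reads to GRCm38 with STAR and quantified genes with Salmon, and they deposited estimated counts per gene, 1 file per mouse, not normalized. Tool versions are not given in the sources used here. After rounding, 17428 genes passed the filter on low counts (10 reads or more in 20% of the mice or more) and were tested. edgeR 4.0.16 (R 4.3.3) with TMM scaling and a quasi-likelihood F test was fitted over all mice, with sex and line as covariates, or with 1 genotype term per line. p-values were adjusted by Benjamini-Hochberg over all tested genes. Levels are CPM, and correlations and ratios use log2 CPM with a prior count of 2 (0.5 for the order of levels). Permutation tests drew 100000 resamples and were exact within lines (scipy 1.17.1). On simulated data for the comparison of both lines (17428 genes), edgeR recovered 134 of 200 genes changed by 1 on the log2 scale and 43 of 200 changed by 0.5, at an adjusted p under 0.05. Alternatives were DESeq2 1.42.0, 5 surrogate variables (sva 3.50.0), no filter on low counts, age as a covariate, and fits without certain mice. Alignment metrics were not used as covariates. The genes named in the text are the 10 subunit genes, the 3 most correlated genes of each, and those called in the related list. The members, marker lists and related genes were chosen with earlier results of these data known. Single genes of the marker lists that are not named are not reported here.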

Additional observations from a re-analysis of the deposited data

Results flagged for a closer look

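Values that stood far from the rest of their group were looked for with Dixon's test at the 95% level in 56 groups of 7 or 8 mice, and 7 groups held one. Chance alone gives about 1 in 20. In CYFIP1 OE mice of line 3, 4 of these values came from replicate 1, the mouse of lowest connectivity: 10.75 CPM for Grin2d (next 4.82), 573.0 CPM for Gria1 (next 334.7), a log2 ratio of Grin2a to Grin2b of -0.93 (next -1.37) and a log2 ratio of Gria1 to Gria2 of 0.189 (next -0.236). In the same group replicate 11 had a log2 ratio of Grin2b to Grin1 of 1.46 (next 1.24). In CYFIP1 OE mice of line 1, replicate 8 had a log2 ratio of Gria1 to Gria2 of -0.789 (next -0.197), and replicate 4 a log2 ratio of Gria3 to Gria2 of -0.779 (next -1.15).

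The genotype difference of Grin3a differed between the lines, by -0.8952 on the log2 scale (line 3 minus line 1, edgeR interaction, p = 0.0293, adjusted p = 0.571). Its mean was higher in CYFIP1 OE mice of line 1, with 6 of 7 above the WT mean, and lower in those of line 3, with 3 of 8 above the WT mean.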

How the results depend on the processing

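No paired analysis was possible because the labels give no replicate numbers that pair mice, and the numbers used here follow accession order. Sample names share prefixes, and a fit with name group as a block in the 5 groups that hold both genotypes (9 WT and 9 CYFIP1 OE mice) called 0 subunit genes, against 4.48% of all tested genes. Of these mice 8 WT and 8 CYFIP1 OE mice were of line 3 and only 1 of each was of line 1, so this fit says little of line 1. Leaving out each mouse was chosen for the single lines, the interaction, line and sex after seeing the data, as was leaving out the name group of the mouse of lowest connectivity. Over both lines 0 subunit genes were called under each alternative and without any mouse, against 3.51% to 7.69% of all tested genes at an unadjusted p under 0.05. Without the mice aged 77 days the counts called were 0 in line 1 (2.86% of all tested genes) and 0 for the interaction (5.36%), and without the mouse of lowest connectivity they were 1 in line 3 (9.03%), 2 for the interaction (10.4%) and 0 for sex (4.61%). With 5 surrogate variables they were 0 for line (4.07%) and 0 for sex (6.2%), and the sex count was 1 with DESeq2 (5.23%), 1 without the filter on low counts (7.99%) and 0 in WT mice only (3.27%). Without that filter 4 related genes were called in line 1 (6.7% of all genes tested without it). With 1 mouse left out, counts ran from 0 to 1 in line 1 (2.59% to 6.08% of all tested genes) and 0 to 1 in line 3 (6.39% to 11.1%). They ran from 0 to 2 for the interaction (6.03% to 10.4%) and 0 to 2 for sex (3.77% to 5.67%). Without the name group of the mouse of lowest connectivity 9 pairs of subunit genes co-varied at an adjusted p under 0.05. The causes were not tested.

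These log2 differences changed sign. In name groups with both genotypes, set against the fit over both lines, they were 0.101 (Grin2a), -0.0174 (Grin2c), -0.0916 (Gria3) and -0.1104 (Gria4). All but 1 WT and 1 CYFIP1 OE mouse in those groups were of line 3. Grin2b was 0.0162 with age as a covariate, and without the mice aged 77 days 0.0179 over both lines, 0.075 in line 1 and -0.0881 for the interaction, where Gria1 was -0.0181 in line 1 and 0.0547 for the interaction. With 5 surrogate variables, genotype gave -0.0279 (Gria1), -0.0727 (Gria2) and -0.0345 (Gria3), line -0.0214 (Gria1), and sex -0.0071 (Grin1) and -0.0167 (Grin3a). Without the mouse of lowest connectivity, Gria1 was -0.0151 over both lines, -0.0923 in line 3, -0.0357 for line and -0.0087 for sex, while line 3 gave -0.086 (Grin2a) and -0.0024 (Gria2), sex 0.0149 (Gria3), and the log2 ratios -0.0812 (Grin2a to Grin2b, line 3) and 0.0318 (Gria3 to Gria2, both lines). In WT mice only, line gave 0.2225 (Grin2d), 0.3961 (Grin3a) and 0.0443 (Gria4), and sex -0.0368 (Grin1), -0.0468 (Grin2b), -0.0461 (Grin3a) and -0.0262 (Gria1). DESeq2 gave 0.0002 for Gria3 and sex. With 1 mouse left out, genotype over both lines ran from -0.0713 to 0.0112 for Grin2b, -0.0151 to 0.1089 for Gria1 and -0.0075 to 0.0565 for Gria3. Of the other log2 differences under settings other than leaving out 1 mouse, 308 kept their sign and side of the threshold, 12 lost the call and 3 gained one. Few reads limit Grin2d, with 4 to 60 per mouse.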
